A study of Mus musculus with 35 samples.

Results

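The arrays compared here came from PPARα-null mice, which lack the nuclear receptor peroxisome proliferator-activated receptor α, and asked how the small intestine responded to a fish-oil fatty acid relative to a monounsaturated one when that receptor was missing. Eicosapentaenoic acid (EPA) had been given to 5 PPARα-null mice as trieicosapentaenoin, and oleic acid (OA) to 4 PPARα-null mice as triolein, both synthetic triacylglycerols with identical acyl chains. These 9 arrays, of 35 in the series, were chosen by their labels, and all 8626 expressed genes (15384 probesets with a group mean above log2 5 in at least 1 of the 8 groups) of 18193 named on the array were tested. All mice, male and 4 months old, had been on a low-fat diet with olive oil as its fat for 2 weeks, were fasted for 4 h, received a gavage of 400 μl and were killed 6 h later. The whole small intestine of 1 mouse went onto each array. The PPARα-null mice were of the 129S4/SvJae strain and the wild-type mice of the 129S1/SvImJ strain, so that genotype and substrain cannot be told apart where the genotypes are set side by side. The other groups used are PPARα-null mice given docosahexaenoic acid (DHA, 4 mice), wild-type mice given EPA (5 mice) and wild-type mice given OA (4 mice). Wild-type mice given DHA (5 mice) and mice of both genotypes given the synthetic PPARα agonist WY14643 (4 mice each) entered the shared fit, the level filter and the ranges of the genotype check. No vehicle-treated mice were analysed here, so every value is EPA relative to OA and not a response to either fat alone.

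Triacylglycerols are split in the gut lumen, and enterocytes take up the fatty acids, activate them with coenzyme A, rebuild triacylglycerol on the endoplasmic reticulum and export it in chylomicrons through the COPII coat of the secretory pathway. PPARα is a fatty acid receptor that switches on genes of fatty acid oxidation, and EPA and OA both bind it. Polyunsaturated fatty acids also act by other routes, such as lowering the activity of SREBP-1c, the transcription factor of lipogenesis, and giving rise to eicosanoids.

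Among the 9 arrays, 2 went against their genotype label. The probeset shared by Cyp4a10 and Cyp4a31, ω-hydroxylases that are classical PPARα targets, read 2.03, 1.68, 1.94, 1.81 and 9.91 on the log2 scale in EPA mice 1 to 5, against 10.61, 2.47, 2.16 and 2.25 in OA mice 1 to 4. The 15 PPARα-null arrays without these 2 ranged between 1.36 and 2.50, and 17 of the 18 wild-type arrays ranged between 8.15 and 12.75. A Ppara probeset read 7.83 in EPA replicate 5 and 7.27 in OA replicate 1, against 4.32 to 6.56 in the other PPARα-null arrays and 5.60 to 9.58 in those wild-type arrays, although whether it lies in the deleted part of the gene is not given in the sources used here. The arrays labelled EPA replicate 5 and OA replicate 1 therefore had levels within the wild-type range. EPA replicate 5 of the wild-type group had the opposite mismatch and was left out of a further fit. The main results are given with all arrays and without the first 2 of these, called the 2 arrays from here on.

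Pancreatic RNA also moved with the gavage. All 18 genes of a list of pancreatic acinar enzymes that are named on the array were expressed, and their summed linear level was 34230, 117600, 43630, 62480 and 86890 in EPA mice 1 to 5, against 110900, 176800, 219400 and 204900 in OA mice 1 to 4. The groups overlapped through EPA replicate 2 and OA replicate 1, and they did not overlap without EPA replicate 5 and OA replicate 1. Of the 18 genes, 17 were lower after EPA, with a median difference of -2.31 (-2.84 without the 2 arrays), although 1 of them, Amy1, was called. PPARα-null mice given DHA had a median sum of 54520. According to the methods, remaining pancreatic tissue had been trimmed from the intestines by hand, and the part of carried-over pancreas in the results was not tested beyond a fit with each array's mean log2 level of this list as a covariate, which was added after seeing the data. That fit called 110 genes in place of 272 with all arrays, and 111 in place of 230 without the 2 arrays. Summed levels of the 14 expressed enterocyte markers ranged from 137900 to 160200 after EPA and from 151700 to 158600 after OA. In whole tissue, fewer cells of a type and less RNA per cell cannot be told apart.

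**Figure D1:**
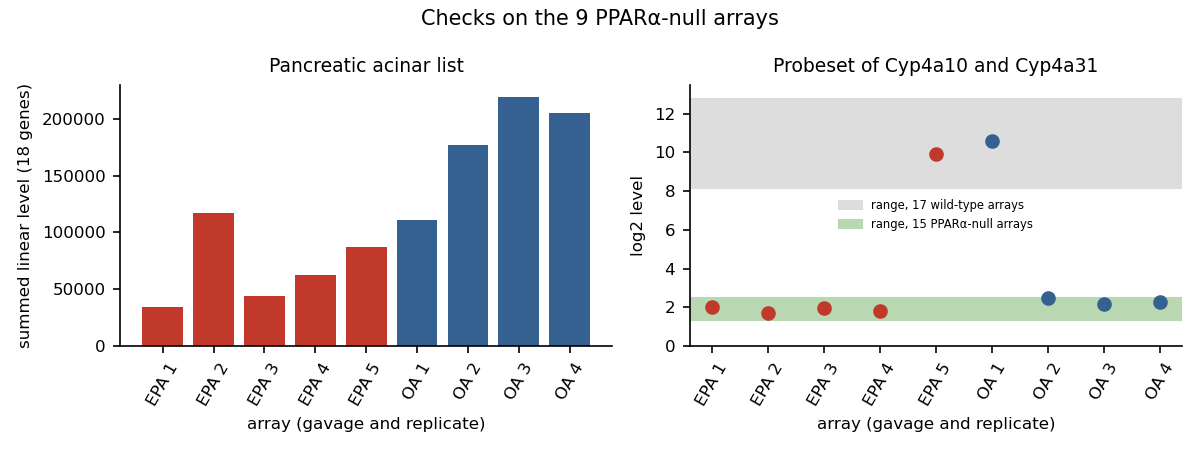
Left, summed linear level of the 18 pancreatic acinar genes on each PPARα-null array, and right, log2 level of the Cyp4a10 and Cyp4a31 probeset, with shaded bands for the ranges of 17 wild-type and 15 other PPARα-null arrays. The EPA arrays reach 117600 and the OA arrays start at 110900 in the left panel, and EPA 5 and OA 1 lie in the wild-type band in the right panel.

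With all arrays, 272 genes differed between EPA and OA mice at an adjusted p under 0.05 (limma, Benjamini-Hochberg over all expressed probesets), which is 3.15% of the expressed genes. Of these, 132 (1.53%) were higher and 140 (1.62%) lower after EPA. Without the 2 arrays, 230 genes (2.67%) differed, of which 102 (1.18%) were higher and 128 (1.48%) lower. The fits shared 165 genes, 68 higher and 97 lower, and no gene was called in opposite directions. Most changes were small, since the median size of a called difference was 0.60 with all arrays and 0.69 without the 2, and 55 and 68 genes differed over 2-fold. Median centring of the arrays changed the split to 98 higher and 153 lower with all arrays and, without the 2, to 77 higher and 163 lower. The median difference over all expressed genes was 0.01, with 4510 genes above 0 and 4116 below.

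The genes higher after EPA included Il1rn, Hk2 and Mmp10, in none of which the EPA and OA mice overlapped. Called genes were selected by their difference, so a lack of overlap in them, here and below, adds no support. The share of all genes without overlap is not given here. Il1rn, which encodes the interleukin-1 receptor antagonist, had log2 levels of 4.69, 5.51, 4.26, 5.79 and 6.61 in EPA mice 1 to 5, against 2.60, 3.43, 3.36 and 3.37 in OA mice 1 to 4. All EPA mice were above all OA mice, and the difference was 2.18 (SE 0.39, adjusted p = 0.00126) and 1.68 (adjusted p = 0.0207) without the 2 arrays. Since the OA mean lay under the level limit of log2 5, the fold is at least 1.29. Every fold given as "at least" is such a bound, since the log2 difference there includes signals under the limit. Hk2, hexokinase 2, which traps glucose in the cell, read 8.38, 7.67, 8.38, 7.95 and 8.33 in EPA mice 1 to 5, against 6.94, 7.30, 6.98 and 6.41 in OA mice 1 to 4. The groups did not overlap, and the 2.35-fold rise had an adjusted p of 0.000888, against 2.29-fold and 0.00719 without the 2 arrays. Mmp10, the matrix metalloproteinase stromelysin-2, had levels of 9.66, 9.02, 9.22, 9.06 and 9.62 in EPA mice 1 to 5, against 8.05, 8.01, 8.80 and 7.91 in OA mice 1 to 4. Its groups did not overlap although OA mouse 3 stood above the other OA mice, and it rose 2.17-fold (adjusted p = 0.00134, and 0.0159 without the 2 arrays).

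Further increases were seen in signalling and membrane genes. Eepd1, an endonuclease-exonuclease-phosphatase family protein that is linked to sterol export in macrophages and was chosen after its values were seen, read between 6.79 and 7.31 in the 5 EPA mice, against 5.78 to 6.17 in the 4 OA mice. Each EPA mouse exceeded each OA mouse, with a difference of 1.02 (SE 0.15, adjusted p = 0.000206). Clec7a, which encodes dectin-1, the receptor for fungal β-glucan on myeloid cells, read 5.27, 5.79, 5.75, 4.84 and 5.14 in EPA mice 1 to 5, against 4.09, 4.57, 3.77 and 3.67 in OA mice 1 to 4, again with no overlap, and differed by 1.33 (SE 0.24, adjusted p = 0.00147) and 1.41 (adjusted p = 0.00547) without the 2 arrays, at least 1.28-fold and 1.33-fold. Ankrd37, a hypoxia-inducible ankyrin repeat gene, differed by 1.77 (SE 0.34, adjusted p = 0.00269) and 1.82 (adjusted p = 0.00943) without the 2 arrays, at least 2.32-fold and 2.19-fold. The unnamed-function gene 9130008F23Rik rose 2.35-fold and 2.47-fold without the 2 arrays, and Plxna2, a semaphorin receptor, rose 2.10-fold and 1.90-fold. Pgap1, which removes an acyl chain from the inositol of glycosylphosphatidylinositol anchors, rose 2.26-fold and 1.78-fold. Adjusted p-values of these 3 genes were 0.000148, 0.00363 and 0.00206 with all arrays.

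Some of the largest increases depended on EPA replicate 5 and OA replicate 1. The acyltransferase gene Mboat1 differed by 2.10 (SE 0.51, adjusted p = 0.0233) with all arrays and by 1.84 (adjusted p = 0.109) without them, at least 2.73-fold in either case. Plat, tissue plasminogen activator, differed by 1.56 with all arrays and by 0.78 (adjusted p = 0.383) without them, and its EPA and OA groups overlapped in both cases. The same loss of the call was found for the carboxylesterase Ces1g (1.41 and 1.43, at least 1.98-fold and 1.76-fold), the small GTPase gene Rab31 (1.14 and 0.88) and Tsc22d2 (1.09 and 1.03). In the other direction, Gm11544 (at least 1.81-fold) and the mucin-type glycosyltransferase gene Gcnt3 were called without the 2 arrays alone, at differences of 1.91 and 1.15, whereas they were 1.42 and 0.92 with all arrays. Lhfpl2, Rgs2, an inhibitor of G-protein signalling, Themis3, Etv3 and Efnb2, which encodes ephrin-B2, rose in both fits on the called probeset, by 1.01, 0.97, 0.92, 0.96 and 1.00 with all arrays and by 1.25, 1.20, 1.17, 1.16 and 1.11 without the 2. The 2 other expressed probesets of Rgs2 were -0.04 and 0.08 (adjusted p = 0.901 and 0.794), so that its rise rests on 1 of 3 probesets, and another probeset of Etv3 was 0.35 (adjusted p = 0.579).

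**Figure D2:**
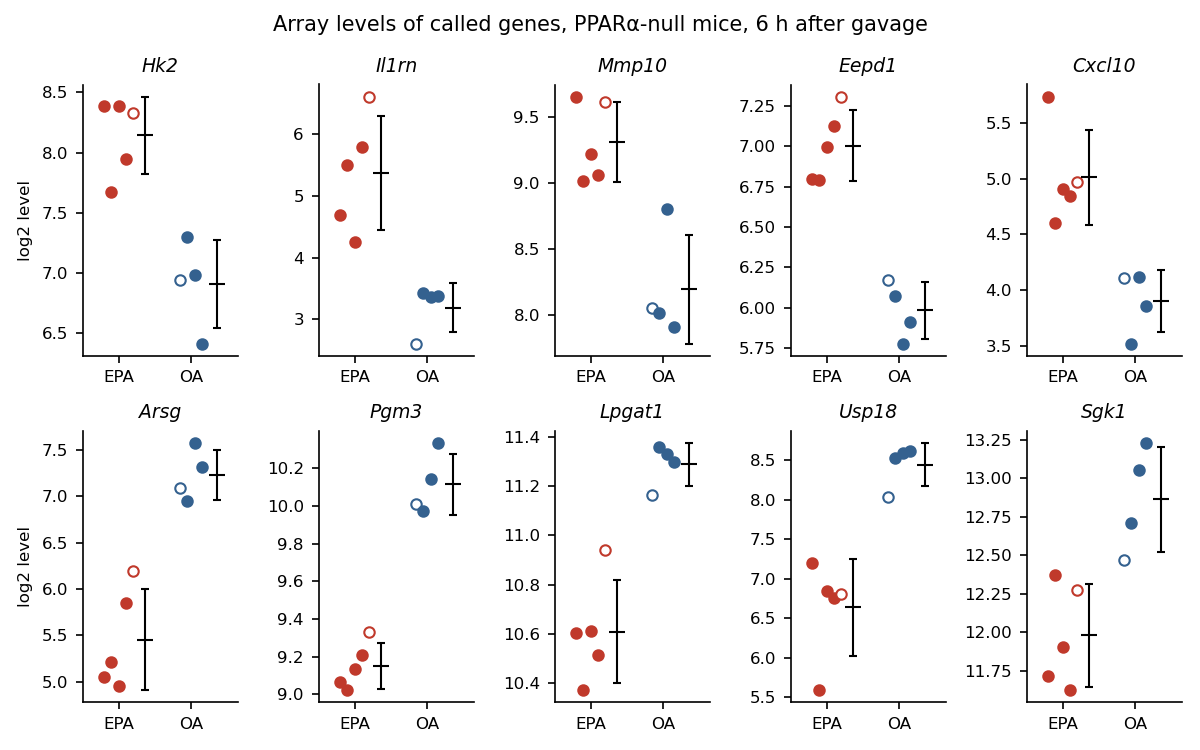
Log2 levels of 10 called genes in each EPA (red) and OA (blue) PPARα-null mouse, with EPA replicate 5 and OA replicate 1 as open circles and bars for the mean and SD over all arrays of the group. The 5 EPA and 4 OA mice do not overlap in any of the 10 panels, whose genes were picked among those called.

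The genes that fell after EPA included several metabolic enzymes. Arsg, the lysosomal arylsulphatase G, read 5.05, 5.22, 4.96, 5.85 and 6.20 in EPA mice 1 to 5, against 7.09, 6.95, 7.57 and 7.31 in OA mice 1 to 4. Its highest EPA value, that of EPA replicate 5, was below its lowest OA value, and the gene was 3.43-fold lower (adjusted p = 7.61e-05, and 2.48e-05 without the 2 arrays). Pgm3, phosphoacetylglucosamine mutase of the hexosamine pathway that makes UDP-N-acetylglucosamine, read 9.06, 9.02, 9.13, 9.21 and 9.33 in EPA mice 1 to 5, against 10.01, 9.97, 10.14 and 10.33 in OA mice 1 to 4, with no overlap and a difference of -0.96 (SE 0.12, adjusted p = 4.1e-05). Lpgat1, an acyltransferase of lysophosphatidylglycerol, read 10.60, 10.37, 10.61, 10.51 and 10.94 in EPA mice 1 to 5, against 11.17, 11.36, 11.33 and 11.30 in OA mice 1 to 4. Its difference was -0.68 (SE 0.09, adjusted p = 4.48e-05) and -0.80 (adjusted p = 3.28e-06) without the 2 arrays, where EPA replicate 5 had been the highest EPA value. Cgref1, a cell growth regulator, fell by 0.55 (adjusted p = 4.1e-05), and Aldh9a1, the aldehyde dehydrogenase of carnitine and γ-aminobutyraldehyde metabolism, fell by 0.46 (adjusted p = 0.000148). Pank3, a pantothenate kinase of coenzyme A synthesis, fell by 0.71 with all arrays and by 0.90 without the 2 (adjusted p = 0.00309 and 2.91e-05). Pgm3, Lpgat1, Cgref1 and Pank3 were chosen after their values were seen.

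Larger falls were found in genes that mostly lay under the level limit after EPA. Dnah2, a dynein heavy chain, read 3.99, 4.60, 4.10, 4.73 and 5.50 in EPA mice 1 to 5, against 5.65, 6.52, 6.99 and 6.91 in OA mice 1 to 4, with no overlap and a difference of -1.93 (SE 0.30, adjusted p = 0.00025). Susd2, a sushi domain protein, was 4.02-fold lower and Lrrc75b at least 1.52-fold lower, with adjusted p = 0.0321 and 0.000541. Gal, the neuropeptide galanin, read 3.15, 4.85, 3.19, 3.82 and 3.86 in EPA mice 1 to 5, against 4.82, 5.78, 6.45 and 7.29 in OA mice 1 to 4. Its groups touched at EPA replicate 2 and OA replicate 1, and it differed by -2.31 (SE 0.39, adjusted p = 0.000659) and -2.75 (adjusted p = 0.000177) without the 2 arrays. Vtn, vitronectin, and Hamp2, a hepcidin, were also under the level limit after EPA and differed by -2.93 and -2.08, at least 1.38-fold and 1.81-fold lower. Dnah2 was at least 2.86-fold and Gal at least 2.12-fold lower.

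The largest falls of all belonged to Prss3, a trypsinogen, and Pla2g1b, the pancreatic phospholipase A2. Prss3 read 2.43, 6.05, 2.55, 2.91 and 2.92 in EPA mice 1 to 5, against 7.42, 8.86, 6.91 and 9.91 in OA mice 1 to 4. Only EPA replicate 2 came above log2 3 among the EPA mice, and it was also the EPA array with the highest pancreatic sum. The groups did not overlap, and Prss3 was at least 9.69-fold lower with all arrays and at least 11.8-fold lower without the 2 (adjusted p = 0.000888 and 0.00388). Pla2g1b was at least 10.2-fold and 13.7-fold lower. The salivary-type amylase gene Amy1 differed by -2.16 (at least 1.23-fold lower) and the kallikrein gene Klk1b5, called without the 2 arrays, by -3.17 (at least 2.05-fold lower). With the pancreatic list as a covariate, Prss3 and Gal differed by -3.85 and -1.79 and stayed called (adjusted p = 0.00974 and 0.00548), whereas Pla2g1b, Vtn, Amy1, Hamp2, Susd2, Kdelr3 and Acot1, with differences of -1.70, -1.71, -1.23, -1.41, -2.00, -1.44 and -1.66, did not (adjusted p = 0.183, 0.212, 0.271, 0.199, 0.0941, 0.0993 and 0.105). Without the 2 arrays Hamp2, Susd2 and Acot1 passed with the covariate (adjusted p = 0.0279, 0.0449 and 0.0449). In the covariate fit with all arrays, Il1rn, Hk2, Arsg, Pgm3, Lpgat1, Dnah2, Srebf1 and Usp18 kept adjusted p-values of 0.00204, 0.00547, 0.000905, 0.000469, 0.000295, 0.00218, 0.0155 and 0.00109. Of 86 called genes followed one by one, 40 lost the call there. Among them were Lpcat3, Apoc2, Sgk1, Nr1d1, Fbp1, Nfkb2, Gpx4, Slc6a3 and Slc2a1 (adjusted p = 0.0628, 0.0835, 0.0636, 0.0977, 0.0787, 0.165, 0.115, 0.137 and 0.0787), described below. In the same order, their differences with the covariate were -0.38, -0.37, -0.91, 1.29, 0.56, 0.56, -0.36, -1.50 and 1.00. Without the covariate they were -0.38, -0.39, -0.89, 1.27, 0.66, 0.69, -0.38, -1.55 and 0.92, so a lost call did not always mean a smaller difference. Without the 2 arrays Lpcat3, Sgk1 and Nr1d1 passed with the covariate (adjusted p = 0.0264, 0.031 and 0.0132).

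Genes of lipid handling that differed were nearly all lower after EPA, and many of these calls appeared when EPA replicate 5 and OA replicate 1 were left out. Srebf1, which encodes SREBP-1, read 7.41, 7.39, 7.27, 7.11 and 8.15 in EPA mice 1 to 5, against 9.37, 8.14, 8.52 and 8.64 in OA mice 1 to 4. With all arrays EPA replicate 5 just exceeded the lowest OA value, and without the 2 arrays the groups did not overlap. The gene was 2.30-fold lower with all arrays (adjusted p = 0.00353) and 2.20-fold lower without the 2 (adjusted p = 0.00559). It was the 1 called gene of 19 expressed genes of lipogenesis and desaturation, whose median difference was -0.12, beside 0.01 for all genes. The lipogenic enzymes Fasn and Scd1, the fatty acid synthase and the stearoyl-CoA desaturase, differed by -0.12 and -0.56, with adjusted p = 0.846 and 0.79 and 95% intervals from -0.50 to 0.25 and from -1.95 to 0.82. None of 21 expressed genes of sterol synthesis was called in either fit, beside 3.15% of all genes with all arrays and 2.67% without the 2. Hmgcs1, HMG-CoA synthase, was at 0.37 (95% interval from -0.06 to 0.79). Lpcat3, which inserts polyunsaturated chains into phospholipids, fell by 0.38 (adjusted p = 0.0195) and by 0.37 (adjusted p = 0.00624) without the 2 arrays.

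Of 20 expressed genes of triacylglycerol resynthesis and chylomicron assembly, 14 were below 0 and 1 was called with all arrays, Apoc2, the activator of lipoprotein lipase. Apoc2 read 12.64, 12.36, 12.32, 12.60 and 12.82 in EPA mice 1 to 5, against 13.06, 12.73, 13.06 and 12.90 in OA mice 1 to 4, and EPA replicate 5 alone reached into the OA range. It was 1.31-fold lower (adjusted p = 0.0207). Without the 2 arrays 3 of the 20 were called, all lower, beside 1.48% lower genes overall (1.62% with all arrays). These were Apoc2 (-0.41), Mttp (-0.34), the microsomal triglyceride transfer protein that loads lipid onto apolipoprotein B, and Sar1b (-0.41), the GTPase of the COPII coat that carries chylomicrons. Acsl5, an acyl-CoA synthetase, fell by 0.28 and Cidec, a lipid droplet protein, by 0.97 without the 2 arrays (adjusted p = 0.0135 and 0.0205). With all arrays the differences of Mttp, Sar1b, Acsl5 and Cidec were -0.24, -0.25, -0.20 and -0.72 and were not called.

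Of 16 expressed genes of ω-oxidation and acyl-CoA thioesterases, 1 was higher and 2 lower with all arrays, and 3 were lower without the 2. Overall 1.53% of genes were higher and 1.62% lower with all arrays, and 1.48% were lower without the 2. Of 10 expressed genes on a list of genotype markers, Ppara and known PPARα targets, Acot1 alone was called, in both fits. Acot9, a mitochondrial thioesterase, rose by 0.39 with all arrays (adjusted p = 0.0462) and was 0.38 (adjusted p = 0.109) without the 2. Acot1, a cytosolic acyl-CoA thioesterase, read 6.14, 6.90, 6.08, 7.10 and 8.79 in EPA mice 1 to 5, against 9.75, 8.23, 8.46 and 8.45 in OA mice 1 to 4. EPA replicate 5 and OA replicate 1 held the highest value of their groups, and without them the groups did not overlap and Acot1 was 3.55-fold lower after EPA (adjusted p = 0.00966), beside 3.30-fold with all arrays (adjusted p = 0.0304). Its mitochondrial relative Acot2 fell by 1.37 and by 1.49 without the 2 arrays, although probes may be shared within this family of near-identical genes. The peroxisomal member Acot4 fell by 1.19 without the 2 arrays, and was -0.98 with all (adjusted p = 0.19). Pdk4, the kinase that shuts off pyruvate dehydrogenase, read 6.68, 7.37, 6.37, 6.97 and 10.09 in EPA mice 1 to 5, against 10.61, 8.81, 9.26 and 10.21 in OA mice 1 to 4. It missed the threshold with all arrays (-2.23, adjusted p = 0.0509) and was 5.98-fold lower without the 2 (adjusted p = 0.0143). Cpt1a, which admits long-chain fatty acids to mitochondria, fell by 0.60 without the 2 arrays, the 1 called gene of 24 of mitochondrial fatty acid oxidation. None of 26 expressed peroxisomal genes was called in either fit. Among all genes 3.15% were called with all arrays and 2.67% without the 2, so lists of this size could hold few calls or none. The PPARα targets Plin2 and Angptl4 were -0.57 and -0.99 with all arrays, with adjusted p = 0.325 and 0.339. Without the 2 arrays Plin2 was not called. It was called lower, at -0.78, when wild-type EPA replicate 5 was left out of the fit as well. Fbp1, the gluconeogenic fructose bisphosphatase, rose by 0.66 and 0.71 (adjusted p = 0.0102 and 0.0156).

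**Figure D3:**
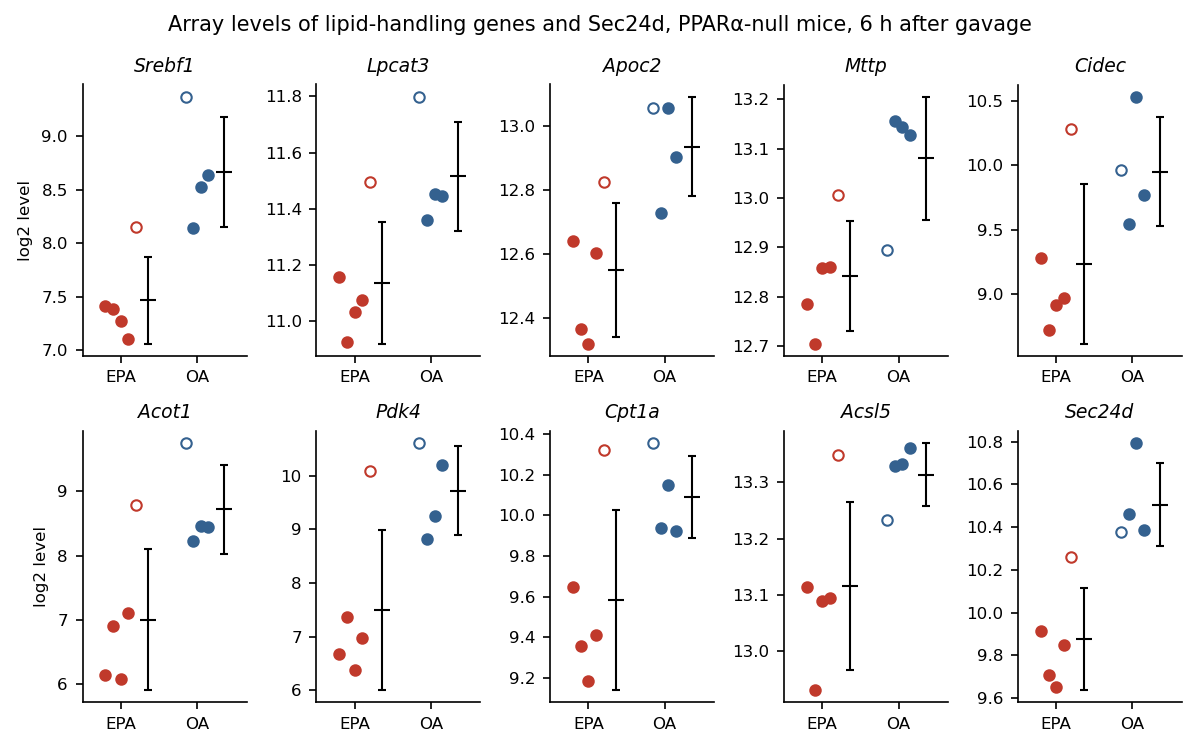
Log2 levels of 9 genes of lipid handling and of Sec24d in each EPA (red) and OA (blue) PPARα-null mouse, with EPA replicate 5 and OA replicate 1 as open circles and bars for the mean and SD over all arrays. In Acot1 and Pdk4 the open circles are the highest values of their groups, and the filled circles of EPA and OA do not overlap.

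Genes of the early secretory pathway, which folds new proteins and carries them from the endoplasmic reticulum to the Golgi, were lower where they differed. Of 105 expressed genes on a list drawn up after the values were seen, 18 were lower and none higher with all arrays, and 20 were lower without the 2. The background for lower calls was 1.62% and 1.48%. The median difference of the list was -0.14, and 94 of the 105 were below 0. Sec24d, a cargo-binding subunit of the COPII coat, read 9.92, 9.71, 9.65, 9.85 and 10.26 in EPA mice 1 to 5, against 10.38, 10.46, 10.79 and 10.39 in OA mice 1 to 4. No EPA mouse reached the OA range, and the gene was 1.55-fold lower (adjusted p = 0.00311). Bet1, a SNARE of Golgi entry, Lman1, a cargo receptor for glycoproteins, and Sec23a, another COPII subunit, fell by 0.58, 0.48 and 0.28 (adjusted p = 0.000541, 0.00919 and 0.0132). Kdelr3, which returns chaperones to the endoplasmic reticulum, was 3.26-fold lower. The summed level of the 105 genes ranged from 120900 to 129500 after EPA and from 133300 to 143300 after OA. Acinar cells are rich in secretory machinery, and the pancreatic sums moved the same way as this list. With the pancreatic covariate 7 of the 105 members were called lower in each fit. In the covariate fits 72 of all 8626 genes were lower with all arrays and 80 without the 2. The 7 with all arrays included Sec24d (-0.55, adjusted p = 0.0307), Bet1 (-0.59, adjusted p = 0.00236), Lman1 (-0.46, adjusted p = 0.0449) and Sec23a (-0.32, adjusted p = 0.0112), and the list's median was -0.12.

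Stress genes of the same compartment had no lower calls. Of 28 expressed genes of the unfolded protein and integrated stress responses, 2 were higher with all arrays, beside 1.53% of all genes. Atf4, the transcription factor of the integrated stress response, and Dnajb9, a chaperone of the endoplasmic reticulum, rose by 0.54 and 0.42 (adjusted p = 0.0375 and 0.0288). None of the 28 was called without the 2 arrays, and neither gene passed with the pancreatic covariate (adjusted p = 0.104 and 0.136). The list's median was -0.02 with 16 genes below 0, and -0.05 with 19 below 0 without the 2 arrays. The amino acid transporter gene Slc38a2, a target of Atf4, rose by 0.72 and by 0.67 (adjusted p = 0.000541 and 0.00632).

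Windows around the start sites, 250 bases before and 50 after, were searched on both strands for the sterol regulatory element TCACNCCAC, since Srebf1 was lower. The sequences are those of RefSeq on GRCm38.p6. Among 110 called lower genes with a window, 5 (4.55%) held a match, among 114 called higher genes 3 (2.63%), among 7049 expressed genes 1.43% and among all 27025 genes with a window 1.44%. The 5 were Aldh9a1, Ggt6, Gnb5, Pkig and Sec24d. The windows of Sec24d (chr3:123267246-123267545, plus strand) and Aldh9a1 (chr1:167349741-167350040, plus strand) are shown because both genes were described above, with the match in capitals, which starts 222 bases before the start site in Sec24d and 41 bases before it in Aldh9a1.
Sec24d: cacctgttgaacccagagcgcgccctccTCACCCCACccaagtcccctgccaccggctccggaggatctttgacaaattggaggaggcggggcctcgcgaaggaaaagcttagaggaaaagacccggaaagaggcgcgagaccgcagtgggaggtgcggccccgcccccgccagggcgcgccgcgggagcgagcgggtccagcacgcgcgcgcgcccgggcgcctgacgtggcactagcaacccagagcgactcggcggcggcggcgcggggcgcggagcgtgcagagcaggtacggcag
Aldh9a1: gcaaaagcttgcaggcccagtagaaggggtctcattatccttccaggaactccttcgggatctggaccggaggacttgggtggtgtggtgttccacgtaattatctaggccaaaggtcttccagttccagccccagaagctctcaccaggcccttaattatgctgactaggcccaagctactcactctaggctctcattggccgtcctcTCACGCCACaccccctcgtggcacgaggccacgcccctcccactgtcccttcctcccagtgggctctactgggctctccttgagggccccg
A match is a description of letters and not evidence of a bound site. The strict direct repeat of AGGTCA with 1 base between, the form of element to which PPARs bind, was found in no called gene and in 13 of all 27025 genes, the antioxidant response element TGACNNNGC in 25 higher (21.9%) and 20 lower (18.2%) genes beside 17.2% of 7049 expressed genes with a window and 14% of all genes, and the E-box CACGTG in 12 higher (10.5%) and 10 lower (9.09%) genes beside 12.4% of expressed and 8.09% of all genes. The called genes are all expressed, and against the expressed genes the E-box shares were lower and the antioxidant share of the lower genes about equal.

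On a list of genes of interferon response and antigen presentation, those called were lower after EPA, apart from the chemokine gene Cxcl10. Interferon-stimulated genes outside this list are not counted here. Of 33 expressed genes of interferon response and antigen presentation, 5 were called lower and 1 higher with all arrays, beside 1.62% lower and 1.53% higher among all genes, and 2 lower and 1 higher without the 2 arrays. The list had a median difference of -0.16 and 25 of 33 below 0. Usp18, the protease that removes ISG15 and damps interferon signalling, read 7.20, 5.59, 6.84, 6.75 and 6.81 in EPA mice 1 to 5, against 8.04, 8.52, 8.59 and 8.62 in OA mice 1 to 4. Every EPA mouse lay below every OA mouse, and Usp18 was 3.49-fold lower (adjusted p = 0.000861) and 3.95-fold lower without the 2 arrays (adjusted p = 0.00202). Irf9, the DNA-binding subunit of the ISGF3 complex, fell by 0.58 and by 0.53 (adjusted p = 0.00245 and 0.0237). Oas1a and Oasl2, of the oligoadenylate synthetase family, fell by 0.84 and 1.10 and Irgm1, an immunity-related GTPase, by 0.73 with all arrays, and without the 2 arrays they were -0.78, -0.94 and -0.60 with adjusted p = 0.0579, 0.117 and 0.153. Cxcl10 read 5.73, 4.60, 4.90, 4.85 and 4.97 in EPA mice 1 to 5, against 4.11, 3.52, 4.12 and 3.86 in OA mice 1 to 4, with no overlap, and differed by 1.11 (SE 0.21, adjusted p = 0.00269) and 1.19 (adjusted p = 0.00736) without the 2 arrays. Of its values, only that of EPA replicate 1 exceeded log2 5, and the fold is at least 1.01, a bound close to no difference. The sum of the 33 genes ranged from 29180 to 36280 after EPA and from 32750 to 38390 after OA, so that the groups overlapped.

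The interferon-stimulated response element was searched in the same windows as a pair of GAAA repeats 2 bases apart, a motif added with the values known. It was present in 9 of 110 called lower genes (8.18%), 3 of 114 called higher genes (2.63%) 3.57% of expressed genes and 3.99% of all genes. Outside the interferon list, the lower genes that held it were Cenpx, Ddx58, Ddx60, Fbxl15, Rab19, Sgk1 and Vtn. Of the 5 genes called lower on that list, 4 had a window. Oas1a and Irgm1 among them held the element, as did Cxcl10, which was higher. Their windows are shown because the 3 genes share the element but not the direction, with matches in capitals. In Oas1a (chr5:120907476-120907775, minus strand) and Irgm1 (chr11:48871371-48871670, minus strand) 2 matches overlap by their middle GAAA, starting 20 and 14 bases before the start site in Oas1a and 30 and 24 bases before it in Irgm1, and in Cxcl10 (chr5:92348840-92349139, minus strand) 1 match starts 213 bases before it.
Oas1a: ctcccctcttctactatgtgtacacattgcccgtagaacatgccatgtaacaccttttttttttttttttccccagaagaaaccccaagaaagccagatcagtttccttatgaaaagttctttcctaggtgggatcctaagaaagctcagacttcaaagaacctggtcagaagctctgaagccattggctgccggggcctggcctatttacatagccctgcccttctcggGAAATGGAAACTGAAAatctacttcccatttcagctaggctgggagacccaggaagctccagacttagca
Irgm1: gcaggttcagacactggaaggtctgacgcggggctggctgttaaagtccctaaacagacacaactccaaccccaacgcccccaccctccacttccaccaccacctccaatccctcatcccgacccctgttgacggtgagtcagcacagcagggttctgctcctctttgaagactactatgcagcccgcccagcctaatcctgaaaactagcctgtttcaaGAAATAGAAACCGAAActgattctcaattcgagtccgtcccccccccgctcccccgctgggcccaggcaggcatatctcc
Cxcl10: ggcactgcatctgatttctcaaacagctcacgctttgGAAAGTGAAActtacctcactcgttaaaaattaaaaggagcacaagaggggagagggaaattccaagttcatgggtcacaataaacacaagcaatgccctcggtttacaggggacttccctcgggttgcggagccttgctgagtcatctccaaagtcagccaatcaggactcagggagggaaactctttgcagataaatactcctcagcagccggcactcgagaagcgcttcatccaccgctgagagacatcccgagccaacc
In the Irf9 and Oasl2 windows these letters were not found.

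Genes of fasting and glucocorticoid action were called in both directions. Of 18 expressed, 1 was higher and 1 lower with all arrays, and 1 was higher and 3 lower without the 2. Shares of all genes were 1.53% higher and 1.62% lower with all arrays, and 1.18% and 1.48% without the 2. The list's median was -0.21 with all arrays, with 7 genes above 0 and 11 below. Sgk1, a kinase that glucocorticoids induce and that controls sodium channels, read 11.72, 12.37, 11.91, 11.62 and 12.28 in EPA mice 1 to 5, against 12.47, 12.71, 13.06 and 13.23 in OA mice 1 to 4, without overlap, and was 1.85-fold lower (adjusted p = 0.0249) and 2.13-fold lower without the 2 arrays (adjusted p = 0.0126). Zbtb16, a zinc finger factor induced by glucocorticoids, read 4.29, 2.65, 3.85, 3.58 and 5.76 in EPA mice 1 to 5, against 4.83, 6.31, 7.24 and 7.61 in OA mice 1 to 4. It differed by -2.47 (adjusted p = 0.0916) with all arrays and by -3.46 (adjusted p = 0.0191) without the 2, and was at least 4.16-fold lower in that fit. Igfbp3, an IGF-binding protein, rose by 0.53 and 0.66. The clock repressor gene Nr1d1 rose by 1.27 (adjusted p = 0.0377) and by 1.72 (adjusted p = 0.00479), at least 2.34-fold and 2.41-fold, and no other of 14 expressed clock genes was called.

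Lists of hypoxia-responsive genes and of NF-κB subunits and inhibitors were drawn up after the values were seen. Of 28 expressed hypoxia genes 5 were higher, namely Ankrd37, Hk2, Slc2a1, Ero1a and Hif1a, and 1 was lower, Mxi1, with all arrays, and 2 were higher and 1 lower without the 2, beside 1.53% higher and 1.62% lower genes overall with all arrays. Hif1a, the oxygen-regulated transcription factor, rose by 0.42 (adjusted p = 0.00655) and was 0.34 (adjusted p = 0.0675) without them. Of 13 expressed NF-κB genes, 1 was higher with all arrays and 3 without the 2, beside 1.53% and 1.18% of all genes. None was lower. Nfkb2, an NF-κB subunit of the non-canonical pathway, rose by 0.69 and 0.80 (adjusted p = 0.0282 and 0.0279), at least 1.23-fold and 1.25-fold, although its other expressed probeset was 0.32 and 0.41 (adjusted p = 0.46 and 0.41). Its partner gene Relb was 0.46 with all arrays and rose by 0.74 without the 2 (adjusted p = 0.202 and 0.0223). All 14 expressed markers of macrophages and dendritic cells lay above 0, with a median of 0.25, though Clec7a alone was called with all arrays, and Clec7a and Fcer1g without the 2. Their summed level ranged from 6615 to 8214 after EPA and from 6287 to 7568 after OA.

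Eicosanoids are signals made from EPA and its relatives. Of 20 expressed genes of their receptors and enzymes, 2 were called with all arrays and 3 without the 2. All were lower, beside 1.62% and 1.48% lower genes overall. The list did not fall as a whole, with a median of 0.07, 12 genes above 0 and 8 below, and 10 on either side without the 2 arrays. Ptger3, the EP3 prostaglandin E2 receptor, read 3.29, 3.81, 3.31, 3.35 and 3.15 in EPA mice 1 to 5, against 4.71, 5.51, 5.70 and 5.57 in OA mice 1 to 4, and Ltc4s, leukotriene C4 synthase, which tuft and mast cells express, read 4.41, 4.76, 4.26, 4.23 and 4.90 in EPA mice 1 to 5, against 5.93, 5.90, 6.50 and 5.97 in OA mice 1 to 4. Neither overlapped between groups, and both lay under log2 5 after EPA, so that Ptger3 was at least 1.29-fold and Ltc4s at least 2.11-fold lower (adjusted p = 0.000148 and 0.00134). Ephx2, the soluble epoxide hydrolase, was -0.53 with all arrays (adjusted p = 0.0595) and fell by 0.59 (adjusted p = 0.017) without the 2. The other expressed genes of this list of 20 were not called.

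Among 290 expressed barrier genes, the transporters and the phase I and II enzymes, 3 were higher and 9 lower in each fit, beside 1.53% higher and 1.62% lower genes overall with all arrays. Slc2a1, Slc25a24 and Slc38a10 were called with all arrays only, and Slc35f5, Akr1a1 and Ephx2 without the 2 arrays only. Of 187 expressed solute carriers, 3 were higher and 8 lower with all arrays. The increases were in Slc38a2, in Slc2a1, the glucose transporter GLUT1 (0.92, at least 1.89-fold, adjusted p = 0.0434, and 0.48, adjusted p = 0.367, without the 2 arrays), and in Slc25a24, a mitochondrial ATP-magnesium carrier (0.31). The falls were in Slc6a3 (-1.55, at least 2.08-fold), the dopamine transporter, Slc35c2 (-1.08), Slc16a6 (-0.63), of the monocarboxylate transporter family, Slc25a11 (-0.55), the mitochondrial oxoglutarate carrier, Slc30a6 (-0.43) and Slc39a9 (-0.39), both of zinc, Slc26a3 (-0.40), the apical chloride-bicarbonate exchanger, and Slc38a10 (-0.39). No ABC transporter of 24, no cytochrome P450 of 20 and no glutathione S-transferase of 20 was called in either fit. With 3.15% and 2.67% of all genes called, lists of this size could hold few calls or none. Of 28 antioxidant genes, Srxn1, sulphiredoxin, rose by 0.43 and Gpx4, the lipid hydroperoxide peroxidase, fell by 0.38 with all arrays (adjusted p = 0.039 and 0.029). Without the 2 arrays Srxn1 was 0.45 (adjusted p = 0.0811), while Osgin1 rose by 0.66 and Gpx4 and Prdx4 fell by 0.45 and 0.46. Slc27a4, Abcd3, Cyp2c65 and Cyp4f16 were not called in either fit, with differences of -0.06, -0.18, 0.38 and -0.37 with all arrays. EPA replicate 5 enters these differences and stood above the other EPA arrays for Abcd3 (12.54, next 11.74) and Cyp2c65 (12.31, next 11.08).

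**Figure D4:**
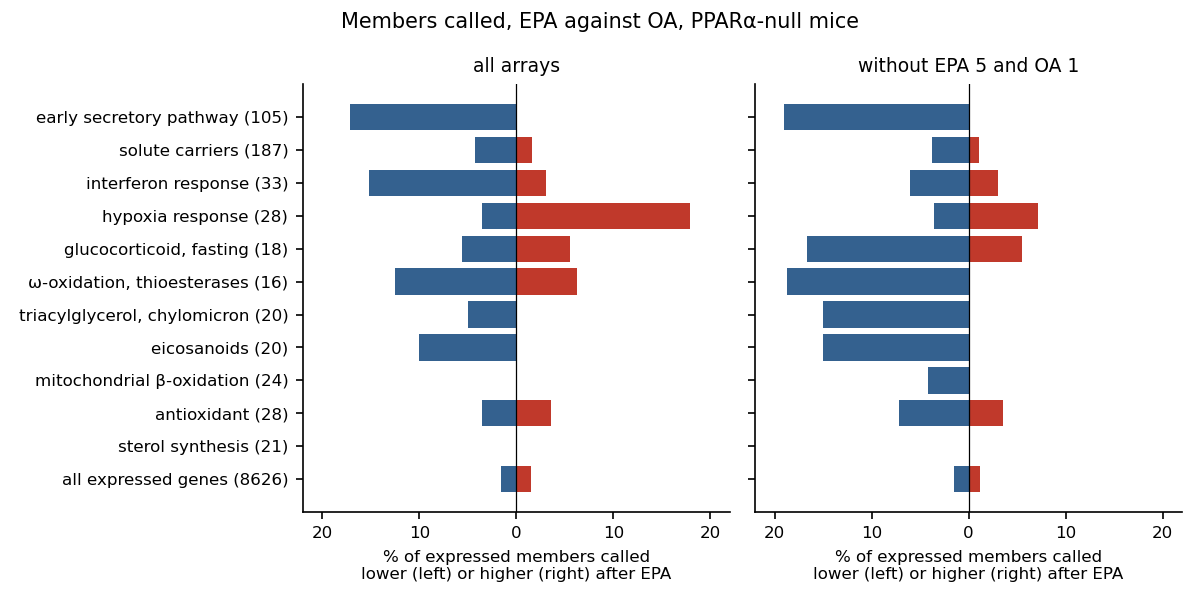
Share of the expressed members of each list (number in brackets) called higher (right, red) or lower (left, blue) after EPA than after OA, with all arrays and without EPA replicate 5 and OA replicate 1. In the early secretory list 18 and 20 of 105 genes were lower and none higher, beside 140 and 128 lower genes among all 8626. The early secretory and hypoxia lists were drawn up after the values were seen.

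The same fats were set side by side in wild-type mice on 9 other arrays. There, 691 genes (8.01%) differed between EPA and OA, 315 higher (3.65%) and 376 lower (4.36%). Of the 272 genes called in PPARα-null mice, 263 (96.69%) had the same sign in wild-type mice, 128 of 132 higher and 135 of 140 lower genes, and 160 (58.82% of the 272 and 23.15% of the 691) were also called there, none in the opposite direction. Over all expressed genes 65.78% had the same sign. Without the 2 arrays and wild-type EPA replicate 5, 266 of 274 called genes (97.08%) had the same sign, beside 63.91% of all, and the wild-type comparison then called 584 genes (6.77%), 265 higher (3.07%) and 319 lower (3.7%). The median difference in the called direction was 0.46 in wild-type mice, beside 0.60 in PPARα-null mice, where the genes had been selected. Pancreatic sums in wild-type mice had a median of 47200 (24620 to 149300) after EPA and of 86860 (51570 to 145200) after OA, and their part in the shared signs was not tested.

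Il1rn differed by 2.54 (adjusted p = 6.77e-05) in wild-type mice, Hk2 by 1.10 (adjusted p = 0.00123), Arsg by -2.28 (adjusted p = 1.17e-07) and Srebf1 by -1.98 (adjusted p = 1.16e-06). Acot1 differed by -1.69 (adjusted p = 0.0153) and Pdk4 by -1.87 (adjusted p = 0.07). In the early secretory list 29 of 105 genes were lower and none higher in wild-type mice, with a median of -0.13. The interferon list had a median of 0.16 in wild-type mice (0.05 without 3 arrays) and of -0.16 in PPARα-null mice. This difference was not tested. Cxcl10 alone was called in wild-type mice, and it was higher after EPA in both genotypes. The 5 members called lower in PPARα-null mice were also below 0 in wild-type mice. There Usp18, Oasl2, Oas1a, Irgm1 and Irf9 differed by -0.82, -0.43, -0.34, -0.22 and -0.20 (adjusted p = 0.121, 0.415, 0.355, 0.605 and 0.349 in limma).

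The difference between genotypes was tested directly as an interaction, EPA minus OA in PPARα-null mice less the same in wild-type mice. No gene passed at an adjusted p under 0.05 in limma. At an unadjusted p under 0.05 there were 682 of 8626 genes with all arrays (629 without the 2 arrays, 645 without 3). A gene counted there if any of its probesets passed, of 13710 named probesets in all. Chance alone puts a share of 0.05 of probesets under that limit, so no interaction is read from these counts. The smallest interaction p-values belonged to Adh6a, an alcohol dehydrogenase (-0.71, SE 0.15), Lig4, the ligase of DNA end joining (0.93, SE 0.21), Rassf6 (0.76, SE 0.17) and Pparg, which encodes the related receptor PPARγ (1.06, SE 0.24), each with an adjusted p of 0.496. Adh6a rose in PPARα-null mice by 0.44 (adjusted p = 0.0234), against 1.16 (adjusted p = 2.72e-08) in wild-type mice, and was 0.41 (adjusted p = 0.0782) in PPARα-null mice without the 2 arrays. Pparg was 0.31 (adjusted p = 0.431) in PPARα-null mice, against -0.75 (adjusted p = 0.0055) in wild-type mice. The interactions of Gal and Prss3 were -2.21 (SE 0.55, adjusted p = 0.633) and -3.60 (SE 1.20, adjusted p = 0.747).

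**Figure D5:**
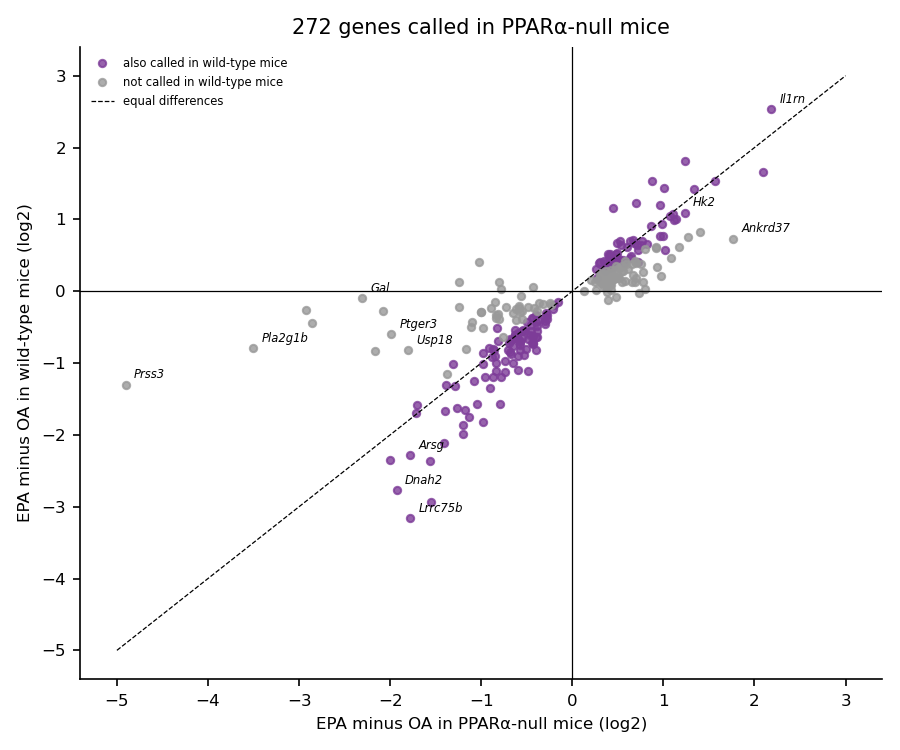
EPA minus OA on the log2 scale for the 272 genes called in PPARα-null mice, in those mice (x axis) and in wild-type mice (y axis), with genes also called in wild-type mice in purple and a dashed line of equal differences. Of the 272 points, 263 have the same sign on both axes, and Prss3, Pla2g1b and Gal lie farther from 0 in PPARα-null mice.

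DHA, the longer fish-oil fatty acid, was also compared with OA in PPARα-null mice, on the same OA arrays. This comparison called 113 genes, 28 higher and 85 lower, and EPA against DHA called 62 genes, 49 higher and 13 lower after EPA. Hk2 was 1.23 after EPA and 0.19 (adjusted p = 0.794) after DHA, each against OA. Il1rn was 2.18 and 0.56 (adjusted p = 0.608), Mmp10 1.12 and 0.01 (adjusted p = 0.99), and Sgk1 -0.89 and -0.01 (adjusted p = 0.99). Falls were side by side at -1.80 and -2.10 (adjusted p = 0.000751) for Usp18, -1.78 and -1.33 (adjusted p = 0.0044) for Arsg, -0.96 and -0.67 (adjusted p = 0.00463) for Pgm3, and -1.99 and -2.20 (adjusted p = 0.000113) for Ptger3. Since both differences use the same 4 OA mice, nothing is drawn from their likeness.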

How the data were processed

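RNA of the whole small intestine was hybridised to Affymetrix mouse whole-genome arrays, 1 mouse per array. The authors had summarised the probes with GCRMA (version not given in the sources used here) and deposited log2 levels. GCRMA subtracts background, normalizes between arrays and summarises probes, and the levels were used unchanged. They ran from -0.17 to 15.03, with array medians from 2.83 to 2.88. GCRMA shrinks low signals, so fold changes under log2 5 (32 on the linear scale) are bounds, taken against 32. Of 45037 non-control probesets, 34945 had 1 gene symbol and were named. No column of sample values was left unused.

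A linear model with the 8 group means was fitted to all 35 arrays in limma 3.58.1 (R 4.3.3) with an intensity trend, and adjusted p-values are Benjamini-Hochberg over 15384 expressed probesets. A gene counted as called if any expressed probeset of it reached an adjusted p under 0.05. All SE, 95% intervals and p-values come from limma, and it was tested on simulated data. SD and n are over mice, and the number of mice limits the precision. The fit was repeated without PPARα-null EPA replicate 5 and OA replicate 1 (33 arrays) and without wild-type EPA replicate 5 as well (32 arrays).

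By rule, the genes named are the 15 largest rises and falls of each fit on the called probeset, and up to 4 members of each list. The genes of smallest interaction p, those of the label check and those the paper measured by qPCR were added. Others were named outside this rule with the values known, which is not said at each. Among these are Irf9, Irgm1, Fasn, Scd1, Plin2, Angptl4, Slc25a11, Slc25a24, Slc30a6 and Slc39a9. Members and lists were chosen with earlier results of these data known, and lists are described by counts and medians with no set test. Alternatives were other level filters, priors, scalings, weights and probeset choices, a replicate block, a pancreatic covariate and leaving out each array. Differences are EPA minus OA.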

Additional observations from a re-analysis of the deposited data

Results flagged for a closer look

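Within the EPA or OA mice, 27 of the 246 groups of values tested had 1 array that stood far from the others (Dixon's test at the 95% level, log2 levels). Chance flags about 1 in 20 groups. EPA replicate 5 was the array in 9 cases and OA replicate 1 in 8.

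EPA replicate 5 was the highest EPA array for Pdk4 at 10.09, Abcd3 at 12.54, Cyp2c65 at 12.31, Srebf1 at 8.15, Sar1b at 12.41, Ephx2 at 11.95, Plin2 at 11.74, Cgref1 at 11.47 and the Cyp4a10 and Cyp4a31 probeset at 9.91. OA replicate 1 was the highest OA array for Acot1 at 9.75, Themis3 at 8.14, Akr1a1 at 12.72 and the Cyp4a10 and Cyp4a31 probeset at 10.61, and the lowest for Il1rn at 2.60, Usp18 at 8.04, Mttp at 12.89 and Sdc1 at 9.18.

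EPA replicate 2 was the lowest EPA array for Usp18 at 5.59, Hspa4 at 10.34 and Atf4 at 10.08, and the highest for Prss3 at 6.05. OA replicate 3 was the highest OA array for Mmp10 at 8.80 and Ltc4s at 6.50, and OA replicate 2 was the highest for Hmgcs1 at 11.74 and the lowest for Oas1a at 9.56. EPA replicate 3 stood high for Tsc22d2 at 7.48 and EPA replicate 4 for Kitl at 8.87.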

How the results depend on the processing

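With all arrays 272 genes were called and without EPA replicate 5 and OA replicate 1 together 230, in limma. No filter on level gave 179 with all arrays, and a fit to the EPA and OA arrays of PPARα-null mice alone gave 53 and 69 with and without those 2. The pancreatic covariate, added after seeing the data, gave 110 and 111, and an unadjusted p under 0.01 gave 731 and 674. Leaving out 1 array of the full set gave 146 to 348 genes in all, and the count was more than 1.5 times below 272 without OA replicate 3 (180), OA replicate 4 (146), EPA replicate 1 (167), EPA replicate 3 (151) or EPA replicate 4 (150). Leaving out 1 more array after those 2 gave 86 to 321 genes in all, with 100 without OA replicate 3, 86 without OA replicate 4 and 149 without EPA replicate 3. The other filters, priors, scalings and probeset choices stayed within 1.5 times of both counts. The interaction called 0 genes in limma under each alternative run.

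Same-numbered EPA and OA mice 1 to 4 correlated at 0.38, 0.48, -0.30 and 0.07 in their deviations. With mice of other numbers the mean correlations were -0.14, -0.17, 0.08 and -0.01. The closest OA mouse bore the same number for EPA mice 1 and 2 and another number for EPA mice 3 and 4. Whether the numbers pair the mice is therefore not clear. With a replicate block 233 genes were called with all arrays and 227 without the 2. Direction turned for uncalled genes when 1 array was left out. Without OA replicate 1, Ppara (highest-mean probeset, -0.09) was 0.23, Slc27a4 0.032, Scd1 0.14 and the Cyp4a10 and Cyp4a31 probeset 1.18. Over all arrays left out in turn, Ppara ranged from -0.41 to 0.23, Slc27a4 from -0.19 to 0.032, Scd1 from -1.16 to 0.14 and the Cyp4a10 and Cyp4a31 probeset from -2.51 to 1.18. The cause of these changes was not tested.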
